A study of Oryza sativa Indica Group and Oryza sativa Japonica Group with 8 samples.

Results

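The genes described are DMC1, SPO11-2, MSH5 and MER3 of rice, a set of 4 meiotic recombination genes read as a measure of meiotic stage. They were chosen by symbol or synonym, with or without the Os prefix, in the array's probe-to-gene annotation, which gave 7 of the 57258 probe sets on the array and 4 of the 17905 genes that its probe sets name. DMC1 had 1 probe set, SPO11-2 had 3, MSH5 had 1 and MER3 had 2. The genes did not move together. After normalization DMC1 read lower at high temperature in all 4 lines. Both MER3 probe sets were called lower at high temperature in the indica lines, as were 28.9% of all tested probe sets. On the deposited scale the mean log2 differences of the DMC1 and MER3 probe sets in indica were -0.044 to 0.12. In both japonica lines DMC1 was lower on either scale. SPO11-2 and MSH5 passed no test of temperature with all arrays in the fit. No probe set of these genes passed the test between tms5 lines and wild types, and none of the 34316 tested did (0%).

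Meiotic recombination starts when SPO11 proteins, relatives of the A subunit of an archaeal topoisomerase, cut both strands of chromosomal DNA, and in Arabidopsis this needs SPO11-2 together with SPO11-1. The recombinase DMC1, which is made in meiotic cells, then coats the resected ends and searches the homologous chromosome for a matching strand. MSH5, which works as a dimer with MSH4, and the helicase MER3 stabilise the joined strands so that a share of the breaks become crossovers. These genes are active in pollen mother cells and their female counterparts at early prophase, so in a whole panicle their transcripts come from a minority of the cells.

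Young panicles were collected over the stages from microspore mother cells to meiosis, and the labelled RNA of each sample went on 1 Affymetrix rice array. AnN (indica, wild type) and ZH11 (japonica, wild type) were set beside AnS-1 (indica, a thermosensitive genic male sterile, TGMS, mutant) and Os02g12290iL1 (japonica, knockdown of Os02g12290 by RNA interference), and the design text calls both of the latter tms5. Plants stood in growth cabinets whose day average was 23 °C (low, permissive for fertility) or 28 °C (high, restrictive), and the study asked whether RNase ZS1, the ribonuclease that TMS5 encodes, takes part in the metabolism of mRNA. Crossing genotype with temperature gives 4 groups of 2 arrays, 1 per background, so no line was repeated at a temperature, the 2 tms5 lines differ in how the gene was affected, and the knockdown is a single named line. The labels do not say how many plants a panicle sample held or give their age. P-values therefore speak only of the spread among the samples at hand, part of which may be technical. Where tms5 lines and wild types are compared, or temperatures within a genotype, that spread is how far the 2 backgrounds disagree. In comparisons within or between backgrounds it is how far wild types and tms5 lines disagree. The level of Os02g12290 itself was not analysed here. In whole panicles, fewer meiotic cells and less RNA per meiotic cell cannot be told apart.

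The deposited intensities lay on 3 scales. Their median over all probe sets was 59.2 to 61.3 on the 2 indica arrays at low temperature, 139 to 141 on the 2 indica arrays at high temperature and 109 to 117 on the 4 japonica arrays. Values below are therefore quantile normalized intensities, linear and without a unit, and differences are on the scale of log2(intensity + 16), which understates changes of dim probe sets. In indica, temperature and array scale cannot be told apart, while in japonica all 4 arrays shared 1 scale. Where the spread is the disagreement of the backgrounds, it can hold that scale too. Intensities are compared between arrays for 1 probe set at a time and never between probe sets.

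All 7 probe sets passed the filter on dim probe sets, which kept 34316. Their readings were also set beside 64 control probe sets for foreign reporter genes, whose 95th percentile was 106 to 154 on the 8 arrays. The highest control read 3075 and 3222 on the 2 arrays of Os02g12290iL1 and 144 to 351 on the others. DMC1 (Os.13051.1.S1_at), MSH5 (Os.53982.1.S1_at), the SPO11-2 probe set Os.18022.2.S1_x_at and the MER3 probe set OsAffx.24661.1.S1_at stood above that level on 8 of 8 arrays. The SPO11-2 probe set Os.18022.1.S1_at did so on 2 of 8 arrays and the MER3 probe set Os.54715.1.S1_x_at on 0 of 8, so both are dim. The annotation lists DMC1A and DMC1B as synonyms of 1 entry, so the DMC1 copies cannot be told apart here, and probe sets whose names end in _x_at may share probes with other transcripts.

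**Figure D1:**
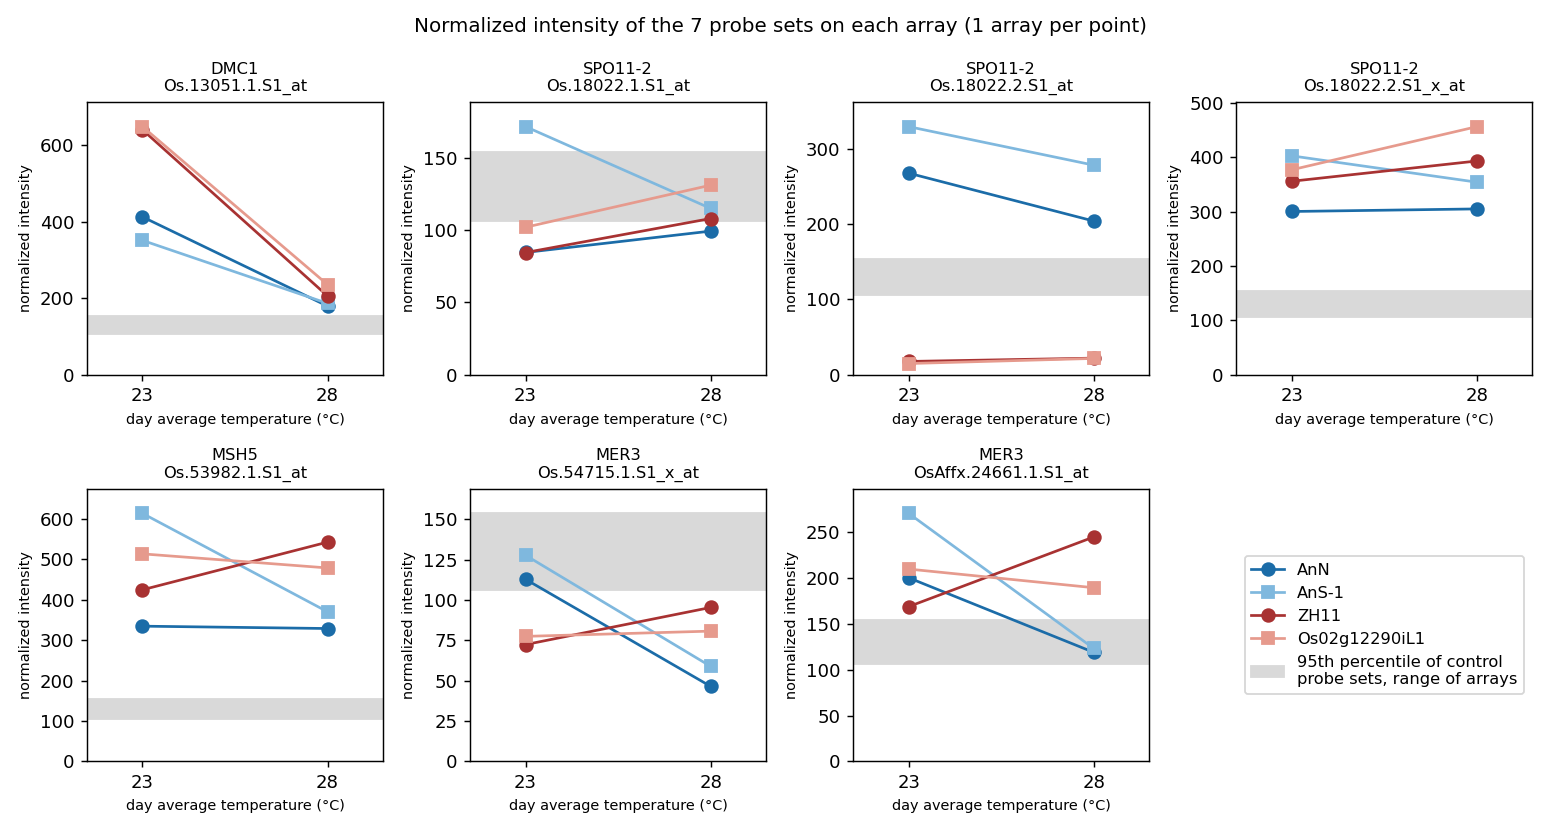
Normalized intensity (linear axis from 0) of the 7 probe sets of DMC1, SPO11-2, MSH5 and MER3 against day average temperature (°C), with 1 array per point and a line joining the arrays of 1 rice line. The grey band spans the 95th percentiles of the control probe sets (106 to 154), and DMC1 reads 352 to 649 at 23 °C and 179 to 236 at 28 °C.

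SPO11-2 (LOC4344697), which makes the breaks, was read by 3 probe sets that did not behave alike. Os.18022.2.S1_x_at read 300.3 in AnN and 403 in AnS-1 at 23 °C and 305 and 354 at 28 °C, and in japonica it read 356 in ZH11 and 377 in Os02g12290iL1 at 23 °C and 393 and 457 at 28 °C. These readings were close on all arrays, and the highest was the RNA interference line at high temperature. Os.18022.2.S1_at read 268, 329, 204 and 278 on the indica arrays (AnN and AnS-1 at 23 °C, then both at 28 °C). In japonica it read 17.6, 14.8, 22.0 and 21.6 (ZH11 and Os02g12290iL1 at 23 °C, then both at 28 °C). The backgrounds did not overlap, and 44 to 54 of the 64 controls were at least as bright on the japonica arrays, so that probe set has no reading above the controls there. The dim Os.18022.1.S1_at read 84.5, 171, 99.3 and 115 in indica and 84.5, 102, 108 and 131 in japonica, in the same order. Its highest reading was AnS-1 at low temperature and the other 7 arrays overlapped across lines and temperatures.

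DMC1 (LOC4351482), the strand exchange protein, read 413 in AnN and 352 in AnS-1 at 23 °C and 179 and 187 at 28 °C. In japonica it read 641 in ZH11 and 649 in Os02g12290iL1 at 23 °C and 206 and 236 at 28 °C. These normalized readings at low temperature and at high temperature did not overlap, in either background or across them. The deposited readings overlapped in indica, at 273 in AnN and 225 in AnS-1 at 23 °C and 239 and 240 at 28 °C. At low temperature the japonica readings were above the indica ones, and at each temperature the tms5 line lay near its wild type. The low over high ratio of normalized intensity was 2.30 in AnN, 1.88 in AnS-1, 3.11 in ZH11 and 2.76 in Os02g12290iL1.

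MSH5 (LOC4339215), the MutS homologue of the crossover pathway, read 335 in AnN and 614 in AnS-1 at 23 °C and 329 and 370.3 at 28 °C. In japonica it read 425 in ZH11 and 514 in Os02g12290iL1 at 23 °C and 543 and 479 at 28 °C. AnS-1 at low temperature was highest and AnN was lowest at both temperatures, and the temperatures overlapped.

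MER3 (LOC4329993), the crossover helicase, was read by OsAffx.24661.1.S1_at at 199.9 in AnN and 270.02 in AnS-1 at 23 °C and at 119 and 123 at 28 °C. In japonica the same probe set read 169 in ZH11 and 209 in Os02g12290iL1 at 23 °C and 244 and 189 at 28 °C. The temperatures were apart in indica and overlapped in japonica. The dim Os.54715.1.S1_x_at read 113, 128, 46.5 and 58.9 in indica and 72.4, 77.5, 95.4 and 80.7 in japonica (wild type and tms5 at low, then at high temperature). Its temperatures were apart in both backgrounds, with lower readings at 28 °C in indica and higher ones in japonica, all of them within the range of the controls. In japonica its log2 change was 0.33 in ZH11 and 0.05 in Os02g12290iL1, and it was not called (limma, adjusted p = 0.759). With so few arrays, readings can lie apart by chance. The share of all tested probe sets whose temperatures lay apart was not counted, so separation alone is a description.

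Temperature was compared within wild types and within tms5 lines, with the background as a block. DMC1 had a log2 change from low to high temperature of -1.13 in AnN and -1.57 in ZH11, a mean of -1.35 ± 0.31 (SD, n = 2), and of -0.86 in AnS-1 and -1.40 in Os02g12290iL1, a mean of -1.13 ± 0.38 (SD, n = 2). It ranked 25 of 34316 by p in wild types and 86 in tms5 lines, and neither change was called by limma after Benjamini-Hochberg adjustment over all probe sets (adjusted p = 0.606 and 0.577). No probe set was called in either comparison (0%, with 2058 in wild types and 1829 in tms5 lines at an unadjusted p under 0.05). With the array set (background by temperature) as a further term, DMC1 had an adjusted p of 0.0179 in wild types and 0.0170 in tms5 lines, where 4007 and 4544 probe sets were called, while over the 16 alternatives its adjusted p ran from 0.0179 to 1.00 and from 0.0170 to 1.00. After normalization DMC1 was 1 of 82 probe sets (0.239% of those tested) at least 1.5-fold lower at high temperature in all 4 lines. No other probe set of these genes was among them. On the deposited scale DMC1 changed by -0.18 in AnN and 0.09 in AnS-1.

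The comparison of temperature within each background was added after the data were seen. In the japonica lines, whose arrays shared a scale, DMC1 had a mean log2 difference of -1.48 ± 0.12 (SD, n = 2), with an adjusted p of 0.129 that was shared by the top of the list (rank 9 by p), and limma called no probe set (0%, with 2868 at an unadjusted p under 0.05). As low a value was found for 0.125% of tested probe sets in ZH11 and 0.446% in Os02g12290iL1. Without AnN or without AnS-1 at low temperature, which alters only the estimate of the spread, the adjusted p of DMC1 was 0.0319 and 69 probe sets were called, and over the 16 alternatives it ran from 0.0319 to 0.984. SPO11-2, MSH5 and MER3 had mean changes between 0.12 and 0.31 in japonica, with adjusted p from 0.694 to 0.938.

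In the indica lines, 3 of the 7 probe sets were called lower at high temperature and none higher, where 28.9% of all tested probe sets were called lower and 20.6% higher. In all, 49.5% were called. The 3 were DMC1 (log2 change -0.997 ± 0.19, SD, n = 2; adjusted p = 0.00244) and both MER3 probe sets, Os.54715.1.S1_x_at (-0.99 ± 0.07, SD, n = 2; adjusted p = 0.00332) and OsAffx.24661.1.S1_at (-0.86 ± 0.26, SD, n = 2; adjusted p = 0.0163). The last had an adjusted p of 0.0906 without AnN and 0.0995 without AnS-1 at high temperature. MSH5 had log2 differences of -0.02 in AnN and -0.71 in AnS-1, and the SPO11-2 probe set Os.18022.1.S1_at had 0.20 and -0.52, with adjusted p of 0.246 and 0.525. Without AnN at low temperature both were called lower, MSH5 at -0.74 (adjusted p = 0.0156, over its alternatives 0.0156 to 0.947) and SPO11-2 at -0.50 (adjusted p = 0.0139, over its alternatives 0.0139 to 0.956).

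The indica changes depend on the scale. On the deposited intensities, before normalization, DMC1 differed by -0.18 in AnN and 0.09 in AnS-1, beside -1.56 in ZH11 and -1.33 in Os02g12290iL1. The median difference over all tested probe sets on that scale was 0.86 in AnN, 0.83 in AnS-1, -0.04 in ZH11 and 0.02 in Os02g12290iL1, and after quantile normalization it was -0.10, -0.13, -0.00 and -0.01. The deposited differences of MER3 in AnN, AnS-1, ZH11 and Os02g12290iL1 were -0.07, 0.09, 0.24 and 0.08 for Os.54715.1.S1_x_at and 0.31, -0.07, 0.41 and -0.09 for OsAffx.24661.1.S1_at. The indica falls of DMC1 and MER3 are thus falls relative to the other probe sets of the array, whereas the japonica values of DMC1 are nearly the same on both scales.

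**Figure D2:**
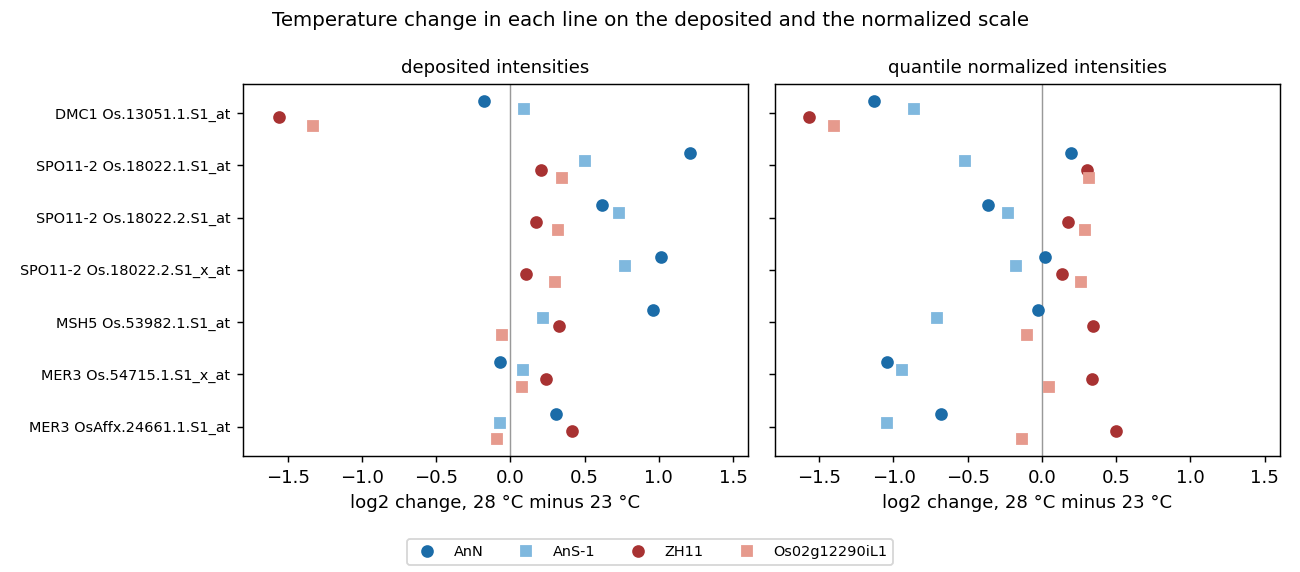
Change from 23 °C to 28 °C on the scale of log2(intensity + 16), per probe set and line, on deposited intensities (left) and quantile normalized intensities (right), with 1 point per pair of arrays and no error since a line has 1 array per temperature. DMC1 in ZH11 and Os02g12290iL1 stays at -1.33 to -1.57 on both scales, while the points of AnN and AnS-1 shift to the left after normalization.

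After normalization the temperature change of MER3 differed between the backgrounds. It was higher in japonica than in indica by 1.18 on the log2 scale for Os.54715.1.S1_x_at (1.38 between wild types and 0.99 between tms5 lines, adjusted p = 0.0108) and by 1.04 for OsAffx.24661.1.S1_at (1.18 and 0.91, adjusted p = 0.0431). On the deposited scale the same gaps were 0.15 and 0.043. Os.54715.1.S1_x_at was above the 95th percentile of the controls on 0 of 8 arrays, so the size of its gap is uncertain. These were 2 of 7 probe sets called, both higher, beside 26.7% of all tested probe sets called, 13.6% higher and 13.1% lower. The call for the first was lost without AnN at high or without ZH11 or Os02g12290iL1 at low temperature (adjusted p 0.0621 to 0.0646, over the alternatives 0.00627 to 0.0646). The call for the second was lost under 7 of 15 alternatives (adjusted p 0.0181 to 0.162), and of the arrays only AnN at low and Os02g12290iL1 at high temperature could be left out without losing it. For DMC1 the difference was -0.49 ± 0.08 (SD, n = 2; adjusted p = 0.0913), and without AnN at low temperature it was -0.64 and called (adjusted p = 0.0233, over the alternatives 0.0233 to 0.258). MSH5 and SPO11-2 Os.18022.1.S1_at, at 0.49 and 0.47 (adjusted p = 0.317 and 0.252), were called higher without that array too, at 0.87 and 0.81 (adjusted p = 0.0275 and 0.00949, over the alternatives 0.0275 to 0.717 and 0.00949 to 0.542). On the deposited scale the gap of DMC1 was -1.40, and those of MSH5 and Os.18022.1.S1_at had the opposite sign, at -0.46 and -0.58. This comparison has the indica array scale in it and so cannot be told apart from that scale.

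The tms5 lines were then compared with the wild types at the restrictive temperature of 28 °C. DMC1 differed by 0.05 in indica and 0.18 in japonica (mean 0.12 ± 0.09, SD, n = 2). The SPO11-2 probe set Os.18022.2.S1_x_at was higher by 0.21 in both backgrounds and Os.18022.1.S1_at by 0.18 and 0.25. MSH5 differed by 0.16 and -0.18, and MER3 by 0.26 and -0.20 for Os.54715.1.S1_x_at and by 0.04 and -0.34 for OsAffx.24661.1.S1_at, so the backgrounds differed in sign. All 7 had an adjusted p of 1.00 in limma, which called no probe set at this temperature (0%, with 405 at an unadjusted p under 0.05). Of the 7 probe sets 3 were higher in both backgrounds, beside 31.7% of all tested, and none was lower in both.

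At the permissive temperature of 23 °C the larger differences were in the indica pair. MSH5 was higher in AnS-1 than in AnN by 0.84 and in Os02g12290iL1 than in ZH11 by 0.27 (mean 0.55 ± 0.41, SD, n = 2). The SPO11-2 probe set Os.18022.1.S1_at was higher by 0.90 and 0.23, Os.18022.2.S1_x_at by 0.40 and 0.08, and the MER3 probe set OsAffx.24661.1.S1_at by 0.41 and 0.29. DMC1 differed by -0.22 and 0.02. Of the 7 probe sets 5 were higher in both backgrounds, beside 35.2% of all tested, and none was lower in both. All 7 had an adjusted p of 1.00 in limma, which called no probe set (0%, with 738 at an unadjusted p under 0.05). In the indica pair the difference rests on 1 array a side, and AnN had the lowest reading of MSH5 and of Os.18022.2.S1_x_at on the low temperature arrays.

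**Figure D3:**
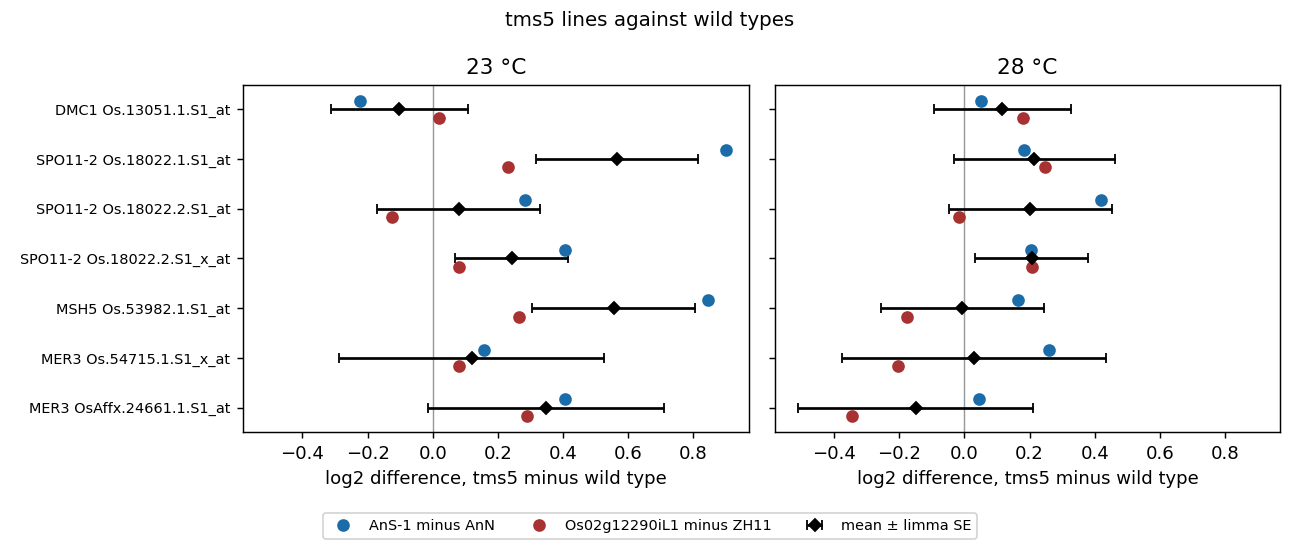
Difference between tms5 line and wild type on the scale of log2(normalized intensity + 16) for the 7 probe sets at 23 °C (left) and 28 °C (right). Circles are the indica pair (blue) and the japonica pair (red), with 1 array a side, and diamonds are their mean with limma's standard error. MSH5 lies at 0.84 and 0.27 at 23 °C and at 0.16 and -0.18 at 28 °C, and DMC1 lies near 0 in both panels.

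Whether the tms5 difference depended on temperature was tested with an interaction term, for which limma called no probe set (0%, with 183 at an unadjusted p under 0.05). It was lowest for MSH5, at -0.68 in indica and -0.44 in japonica (mean -0.56 ± 0.17, SD, n = 2), and for MER3 OsAffx.24661.1.S1_at, at -0.36 and -0.63. DMC1 had 0.27 and 0.16. Of the 7 probe sets 2 were lower in both backgrounds and 2 were higher in both, beside 31% and 29.2% of all tested. All 7 had an adjusted p of 1.00 in limma.

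The backgrounds were compared at each temperature, also after the data were seen. At low temperature DMC1 was higher in japonica by 0.61 between wild types and 0.86 between tms5 lines (mean 0.74 ± 0.17, SD, n = 2; adjusted p = 0.00567), and it was not called without ZH11 (adjusted p = 0.0513) or without Os02g12290iL1 (0.0508) at low temperature. At high temperature DMC1 differed by 0.18 and 0.31 (adjusted p = 0.154). At low temperature 3 of the 7 probe sets were called, beside 49.5% of all tested. The others were MER3 Os.54715.1.S1_x_at, lower in japonica (log2 differences -0.54 and -0.62, adjusted p = 0.0171, and 0.105 without ZH11 or 0.0984 without Os02g12290iL1 at low temperature), and SPO11-2 Os.18022.2.S1_at. At high temperature 4 were called, beside 44.7% of all tested: MER3 Os.54715.1.S1_x_at (0.60, adjusted p = 0.0168) and OsAffx.24661.1.S1_at (0.76, adjusted p = 0.0260), both higher in japonica, SPO11-2 Os.18022.2.S1_x_at (0.35, adjusted p = 0.0477) and SPO11-2 Os.18022.2.S1_at. The first was not called without AnN, AnS-1 or ZH11 at high temperature (adjusted p 0.0527 to 0.131). The second was not called without these or without either japonica array at low temperature (0.0521 to 0.142). Os.18022.2.S1_x_at was not called under 11 of 16 alternatives, among them leaving out any array at high temperature or either japonica array at low temperature (0.0789 to 0.217). MSH5 had a difference of 0.53 at high temperature (adjusted p = 0.127) and was called without AnN or without AnS-1 at low temperature (adjusted p = 0.0186 in each, over the alternatives 0.0186 to 0.533). At low temperature SPO11-2 Os.18022.1.S1_at (-0.33, adjusted p = 0.209) was called lower in japonica without AnN at low temperature (-0.67, adjusted p = 0.00533, over the alternatives 0.00533 to 0.974).

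The SPO11-2 probe sets disagreed on the background. Os.18022.2.S1_at was lower in japonica with an adjusted p of 0.000108 at low and 0.000197 at high temperature, with japonica readings of 14.8 to 22.0 at the level of the controls, so no fold is given. Os.18022.2.S1_x_at, of the same annotated gene, read 356 to 457 in japonica and 300.3 to 403 in indica.

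Other meiosis genes were taken from 4 lists, of break formation and strand exchange, crossover formation and mismatch repair, chromosome axis and cohesion, and meiotic entry, which matched 30 probe sets, of which 28 were tested. In the indica lines 12 of the 28 were called lower at high temperature and 2 higher, beside 28.9% and 20.6% of all tested, with a median change of -0.51 beside -0.12 over all tested. Those lower were SPO11-4, PAIR1, CRC1, TOP6B, SDS, RPA1A and RPA1B of the break and strand exchange list, MUS81 and SEND1 of the crossover list, PAIR2 and PSS1 of the axis list, and MEL1, a germ cell Argonaute. RPA1B, a subunit of the protein that coats single-stranded DNA, changed by -1.71 in AnN and -1.81 in AnS-1 (adjusted p = 0.00266). PAIR2, an axis protein needed for pairing of homologues, changed by -0.96 and -1.30 (adjusted p = 0.00188), and PAIR1, needed for the same step, by -0.81 and -0.99 (adjusted p = 0.00388). TDL1A, the ligand that limits the number of germ cells, was higher by 1.03 and 1.09 (adjusted p = 0.000717), and so was RR24, a response regulator, by 0.24 and 0.38 (adjusted p = 0.0494).

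In japonica no probe set of these lists was called, and the median difference of the 28 was 0.01. PAIR2 had 0.01 in ZH11 and -0.22 in Os02g12290iL1, and RPA1B had -0.02 and -0.26, beside the -1.57 and -1.40 of DMC1. On the deposited scale the indica direction of the list turned: its median change was 0.51 in AnN and 0.33 in AnS-1, below the 0.86 and 0.83 of all tested probe sets. After normalization limma called the difference between the backgrounds higher in japonica for 9 of the 28, beside 13.6% of all tested. Among them were PAIR2 (1.03, adjusted p = 0.0142) and RPA1B (1.62, adjusted p = 0.0186). The difference was called lower for 1, TDL1A (-1.25, adjusted p = 0.00267), beside 13.1%. This comparison has the indica array scale in it. On the deposited scale the median changes of the list in japonica, 0.08 in ZH11 and -0.07 in Os02g12290iL1, lay below those in indica. With each array centred on its median, 23 of 28 were lower in AnN and 24 of 28 in AnS-1, beside 59.8% and 62.6% of all tested.

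The same lists were compared between tms5 lines and wild types at low temperature, where none of the 28 was called. There 22 of 28 were higher in both backgrounds and 2 were lower in both, beside 35.2% and 26.6% of all tested. In each background alone 24 of 28 were higher, beside 52.4% of all tested in indica and 56.1% in japonica. The median was 0.49 in indica and 0.14 in japonica, beside 0.02 in each over all tested probe sets. Among those with the larger values in both were RPA1B (0.89 and 0.31), EXO1, a nuclease that resects breaks (0.95 and 0.29), and MRE11, part of the complex that starts resection (0.59 and 0.24). At high temperature 10 of 28 were higher in both, beside 31.7% of all tested, and 4 lower in both, beside 20.4%, and none was called. In indica alone 24 of 28 were higher at that temperature (median 0.18), beside 59.5% of all tested. In japonica alone 10 of 28 were higher (median -0.06), beside 51.7%. At high temperature MEL1 had 0.87 and 0.32, and CRC1, a relative of the checkpoint protein PCH2, had 0.90 and 0.26.

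Genes of other tissues were read on the same arrays. The 8 tested photosynthesis probe sets, markers of green tissue, belong to at most 4 genes. At low temperature 8 of 8 were lower in AnS-1 than in AnN, beside 47.6% of all tested. In Os02g12290iL1 against ZH11 6 of 8 were lower, beside 43.8%. Their summed normalized intensity at low temperature was 15550 in AnN, 8390 in AnS-1, 7283 in ZH11 and 6882 in Os02g12290iL1. At high temperature it was 8462, 8740, 6241 and 3678 in the same order. The sums are led by the bright probe sets of CAB2R, a chlorophyll-binding protein. From low to high temperature 5 of 8 probe sets were higher in AnN (median 0.18), where the sum was lower, beside 43.3% of all tested. In Os02g12290iL1 4 of 8 were higher (median -0.0025), beside 48.7%. The 12 probe sets of tapetum and pollen wall genes, which nurse the pollen, summed to 13951 in AnN and 9148 in AnS-1 at 23 °C and to 30411 and 17506 at 28 °C. In japonica they summed to 45283 in ZH11 and 34973 in Os02g12290iL1 at 23 °C and to 44557 and 30480 at 28 °C. Of the 12, 0 to 4 on the indica arrays and 0 to 2 on the japonica arrays lay at or below the 95th percentile of the controls. No probe set of either list was at 0. C6, a lipid transfer protein of the tapetum, read 17.8 in AnN and 8.85 in AnS-1 at 23 °C but 7438 and 708 at 28 °C, and PTC1, a regulator of tapetum death, read 13.4, 9.86, 428 and 116. At 23 °C both genes read below the control median, 36.6 in AnN and 31.8 in AnS-1, so no fold is given. In indica, 4 of the 12 tapetum probe sets were called higher at high temperature and none lower, beside 20.6% and 28.9% of all tested, on the same arrays on which DMC1 and MER3 read lower. Of the 8 photosynthesis probe sets 2 were called higher and 1 lower in indica. In japonica none of either list was called in either direction. The part of these tissues in the meiosis values was not tested.

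**Figure D4:**
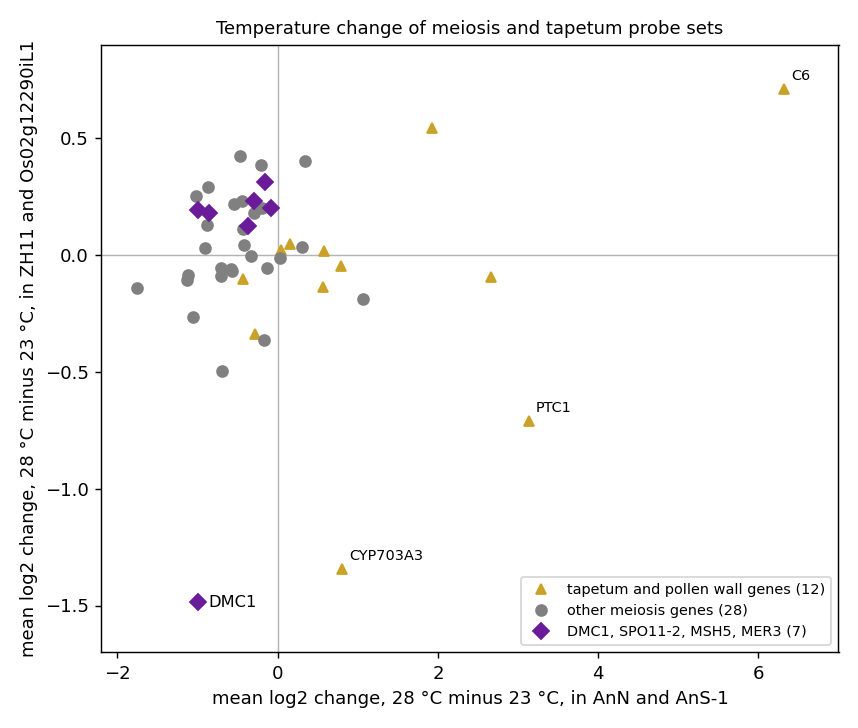
Mean change from 23 °C to 28 °C on the scale of log2(normalized intensity + 16) in the 2 indica lines (horizontal axis) and the 2 japonica lines (vertical axis), with 1 point per probe set of the tapetum list (12), the other meiosis lists (28) and the genes described here (7). DMC1 lies at -0.997 and -1.48, apart from the other meiosis probe sets, which spread mainly along the horizontal axis, and C6 and PTC1 lie far to the right.

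Over the 8 arrays, which fall into 3 sets by scale, the log2 readings of the members were related as follows, as a description. The MER3 probe sets had a Pearson r of 0.905 with each other. MSH5 had 0.808 with MER3 OsAffx.24661.1.S1_at and 0.805 with SPO11-2 Os.18022.2.S1_x_at. DMC1 had r between -0.37 and 0.38 with the other 6 probe sets. With each array set centred on its own mean, DMC1 had negative r with all 6, from -0.64 to -0.29, while MSH5 and MER3 OsAffx.24661.1.S1_at had 0.864. This centring removed temperature in indica, where a set holds 1 temperature, but not in japonica. The centred r of DMC1 thus rest mainly on its japonica fall.

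Among 2691 tested probe sets with 1 gene and an informative symbol, those most like DMC1 over the 8 arrays were MtN3-like (r = 0.978), HMG3 (0.932) and mfs1 (0.931), and MtN3-like was also first with the array sets centred (0.994). The most like MSH5 were ABH1 (0.995), HEI10 (0.976) and MRE11 (0.973), the latter 2 being members of the meiosis lists. The most like MER3 were HOS16 (0.981), PP37 (0.976) and OsMac1 (0.970) for Os.54715.1.S1_x_at and LHP1 (0.988), OsPL10a (0.986) and PRMT3 (0.977) for OsAffx.24661.1.S1_at. For SPO11-2 they were GLU13 (0.922), OsRPA14 (0.903) and OsSPPL5 (0.886) for Os.18022.2.S1_x_at, CSLE2 (0.904), bip131 (0.895) and KU80 (0.892) for Os.18022.1.S1_at, and Hox11, METK3 and HB2 for Os.18022.2.S1_at, with r from 0.993 to 0.994. The japonica readings of Os.18022.2.S1_at are at the level of the controls, so its r mainly follow the split between backgrounds.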

How the data were processed

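Per the submitters' processing notes the authors used RMA in the Affymetrix Expression Console (the version is not in the sources used here) and deposited a linear intensity for each probe set of each array. How the 3 scales arose is not stated there either. All 57258 probe sets were quantile normalized. The 64 foreign reporter controls were then left out, and the upper 60% by mean (34316) were tested on log2(intensity + 16) with limma 3.58.1 in R 4.3.3 (4 group means, background as a block, 3 residual and 2.157 prior degrees of freedom). P-values are two-sided, and a call is a Benjamini-Hochberg adjusted p under 0.05. Comparisons within or between backgrounds (4 groups of background and temperature, genotype as a block) were added after the data were seen. The fit was run on simulated data with known changes in tms5 lines at high temperature. Their spread was capped at the median of the real probe sets and they had no array scales. That setting is easier than the real arrays. The members and lists were chosen with earlier results of these data known. Symbols came from the probe table, which gave 1 gene for 22436 probe sets, and from RefSeq names and synonyms. By rule, all members, list genes called by limma (where none was, up to 4 a list with the largest smaller change of both backgrounds) and the 3 probe sets most like each member could be named. The alternatives changed the scaling (median centring), the pseudocount (1), the filter (none, or the upper 40%) and the block (none, or block by temperature too). That added term is the array set where background is the block, and genotype by temperature where genotype is the block. Other alternatives changed the arrays fitted (4) and eBayes (trend and robust), or left out each of the 8 arrays. The number of arrays limits the precision.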

Additional observations from a re-analysis of the deposited data

Results flagged for a closer look

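After normalization, the change of MER3 from low to high temperature was higher in japonica than in indica by 1.18 on the log2 scale for Os.54715.1.S1_x_at, which is no brighter than the upper controls, and by 1.04 for OsAffx.24661.1.S1_at, a difference between backgrounds that passed the test (limma, adjusted p = 0.0108 and 0.0431). On the deposited scale these gaps were 0.15 and 0.043, and the calls were lost under 3 of 14 and 7 of 15 alternatives. The SPO11-2 probe set Os.18022.2.S1_at had differences of opposite sign in the backgrounds, both with temperature (gap, indica minus japonica, -0.53, adjusted p = 0.132 in limma) and between tms5 lines and wild types (gap 0.42, not tested). Its japonica readings lay among the control probe sets, so neither gap can be read as a difference in SPO11-2.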

How the results depend on the processing

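Leaving out the background as a block called no probe set in the tms5 comparisons either. The labels give no replicate numbers, so arrays could be paired only by background and by line. The background block pairs each tms5 line with its wild type. Within a genotype it pairs the temperatures of each line. With only the 4 arrays of a comparison 135 probe sets were called between tms5 and wild type at high temperature, and the array set as a further block gave 3, against 0. That block called 4007 probe sets for temperature in wild types and 4544 in tms5 lines, against 0 in each. For temperature in indica the call count of 16977 went to 29204 with no filter, 9815 with the upper 40% and 10076 with only the 4 arrays. The difference between backgrounds went from 9172 to 16833 with no filter and to 4540 with the upper 40%. Japonica against indica went to 27431 and 10144 at low temperature, and to 23229 with no filter at high temperature. With 1 array left out, whose group then has 1 array assumed to vary like the others, the counts were 0 to 35 for tms5 at low temperature (35 without Os02g12290iL1), 0 to 29 for temperature in tms5 lines (29 without Os02g12290iL1 at low temperature), 6852 to 18225 in indica, 0 to 69 in japonica, 3069 to 13098 for the difference, and 8463 to 17930 at low and 7382 to 19082 at high temperature between backgrounds. Median centring turned SPO11-2 Os.18022.2.S1_at in tms5 lines with temperature (-0.012), and SPO11-2 Os.18022.2.S1_x_at (-0.073) and MSH5 (-0.13) between backgrounds at low temperature. The cause was not tested. The log2 differences of the members that changed sign when 1 array was left out had these ranges. For tms5 against wild type at high temperature they were -0.089 to 0.32 for DMC1 Os.13051.1.S1_at, -0.12 to 0.52 for SPO11-2 Os.18022.2.S1_at, -0.28 to 0.27 for MSH5 Os.53982.1.S1_at, -0.52 to 0.58 for MER3 Os.54715.1.S1_x_at and -0.63 to 0.33 for MER3 OsAffx.24661.1.S1_at. At low temperature they were -0.35 to 0.14 for DMC1 Os.13051.1.S1_at, -0.23 to 0.39 for SPO11-2 Os.18022.2.S1_at, -0.30 to 0.54 for MER3 Os.54715.1.S1_x_at and -0.039 to 0.73 for MER3 OsAffx.24661.1.S1_at. In the interaction they were -0.024 to 0.46 for DMC1 Os.13051.1.S1_at, -0.73 to 0.029 for SPO11-2 Os.18022.1.S1_at, -0.20 to 0.44 for SPO11-2 Os.18022.2.S1_at, -0.24 to 0.17 for SPO11-2 Os.18022.2.S1_x_at and -0.64 to 0.46 for MER3 Os.54715.1.S1_x_at. For temperature in wild types they were -0.42 to 0.23 for SPO11-2 Os.18022.2.S1_at, -0.013 to 0.17 for SPO11-2 Os.18022.2.S1_x_at, -0.12 to 0.43 for MSH5 Os.53982.1.S1_at, -0.90 to 0.19 for MER3 Os.54715.1.S1_x_at and -0.57 to 0.38 for MER3 OsAffx.24661.1.S1_at. In tms5 lines they were -0.48 to 0.28 for SPO11-2 Os.18022.1.S1_at, -0.29 to 0.34 for SPO11-2 Os.18022.2.S1_at and -0.16 to 0.25 for SPO11-2 Os.18022.2.S1_x_at. In indica lines they were -0.50 to 0.18 for SPO11-2 Os.18022.1.S1_at, -0.20 to 0.042 for SPO11-2 Os.18022.2.S1_x_at and -0.74 to 0.015 for MSH5 Os.53982.1.S1_at. In japonica lines they were -0.18 to 0.42 for MSH5 Os.53982.1.S1_at and -0.11 to 0.48 for MER3 OsAffx.24661.1.S1_at. For japonica against indica at low temperature they were -0.67 to 0.0048 for SPO11-2 Os.18022.1.S1_at, -0.049 to 0.19 for SPO11-2 Os.18022.2.S1_x_at and -0.34 to 0.42 for MSH5 Os.53982.1.S1_at. At high temperature for the backgrounds they were -0.0015 to 0.27 for SPO11-2 Os.18022.1.S1_at.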
